A study of Quercus robur with 12 samples.

Results

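Under drought stress, the miRNAs of lateral root tips (LR-DS) were compared with those of taproot tips (TR-DS) in pedunculate oak (Quercus robur), with 3 small RNA libraries of each root type out of 12 libraries in all. LR-DS and TR-DS came from wild-type seedlings that had been acclimatized for 8 weeks and then kept for 4 weeks at a soil moisture of 25% of the control. Per the methods, water could during the drought be reached only in the deeper part of the growth chambers (rhizotrons). The moisture at the tips of each root type is not given, so under drought it cannot be told apart from root type. In each replicate, 10 to 15 root tips with their meristematic zone were pooled. LR-CT and TR-CT, with 3 libraries each, are lateral roots and taproots of fully watered seedlings and are used here only to see whether a difference between the root types was also present without drought. Whether a library came from containerized or directly sown seedlings is not given per library, so cultivation was not used. Nothing states that lateral root and taproot libraries of the same number came from the same plants. The table holds mature miRNAs and no marker genes, so the labelled tissue could not be checked against cell type markers.

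The taproot of an oak grows straight down into deeper soil layers, while lateral roots emerge from it and explore the soil to the side. Plant miRNAs are short RNAs that guide an Argonaute protein to a complementary site in a messenger RNA, which is then usually cleaved or less translated. Many of the conserved families control transcription factors of meristems and organ patterning: miR166 targets HD-ZIP III factors, miR171 GRAS factors, miR164 NAC factors and miR396 growth-regulating factors. Others act on auxin signalling (miR160, miR167, miR390 and miR393), on the age of the plant (miR156 and miR172), or on nutrient and copper use (miR395, miR398, miR408 and miR2111).

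All 75 miRNAs of the table were examined. They comprise 51 known miRNAs of 23 families (their prefix qrb- is omitted) and 24 whose name is just a sequence, numbered here S1 to S24 by mean level over the 6 drought libraries. The sequences that carry the results are shown 5′ to 3′, with the seed (bases 2 to 8, the stretch that pairs first with a target) in capitals. S1 took most counts of every drought library, S2 and S3 were the most abundant sequence-named miRNAs of usual length, and S15 and S11 lay higher in every LR-DS than in every TR-DS library in the main scaling:
S1: cCGGUCUGcucguccc
S2: aGUGGAAGgauuggaaagaca
S3: uUUGGAAAcgcacuugaaucg
S15: uCUGUCGUgggagagaugacgc
S11: cGUGAUAUugguucggcucuuc

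S11 has the same seed as some miR171 query sequences of the study. Of the known miRNAs, only family-level query sequences are given in the supplement of the study, so that they cannot be tied to a member such as miR171a. Both miR171 queries with this seed are shown for comparison with S11, followed by the queries of the families described most:
miR171: cGUGAUAUugauuuggcucuuc
miR171: uGUGAUAUugguacggcucguc
miR166: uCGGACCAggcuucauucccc
miR166: uCUCGGACcaggcuucauucc
miR390: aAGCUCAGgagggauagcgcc
miR408: cGGGGAACaggcagagcaugg
miR172: aGAAUCUUgaugaugcugcau
Counted from 1 at the 5′ end, S11 differed from the first miR171 query by A11G and U14C, and from the other one by U1C, A13U and G20U (query base first). It is counted here as a sequence of its own and not within the miR171 family. Whether S11 or a query shown is the strand that acts on the targets named for its family was not tested. No targets are read from these sequences.

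The deposited counts summed to 902505, 864103 and 160039 in LR-DS 1 to 3, and to 371099, 409456 and 876789 in TR-DS 1 to 3. S1, at 16 nt shorter than the size selection of 18 to 30 nt, held 86.2%, 86.0% and 83.7% of the counts in LR-DS, against 72.6%, 83.4% and 74.5% in TR-DS. Every LR-DS library thus had a larger share than every TR-DS library, although the lowest LR-DS and the highest TR-DS library were only 0.274 percentage points apart. The means were 85.3 ± 1.41% in LR-DS and 76.8 ± 5.78% in TR-DS (SD, n = 3 each), a difference of 8.47 percentage points (two-sided exact permutation test, p = 0.1, which 3 against 3 libraries cannot go below). In the watered libraries the groups overlapped, with 47.6 ± 13.3% in LR-CT and 72.5 ± 17.0% in TR-CT (SD, n = 3 each), and the interaction of root type and watering had a log2 value of 2.42 (standard error 0.83, FDR 0.202 in edgeR). No test was made of whether S1 is a mature miRNA.

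The remaining 74 miRNAs shared 124387, 120543 and 26087 counts in LR-DS and 101684, 67863 and 223380 counts in TR-DS. Levels are therefore given below as the percentage of a library's counts other than S1, written as "% of other counts". For the tests, counts were scaled with TMM factors (edgeR's scaling, which sets the typical miRNA equal between libraries) and log2FC is the log2 of LR-DS over TR-DS. A count of 0 allows up to 3 counts, which is 0.00187% of all counts in LR-DS 3, the smallest library. Such limits cover counting error only.

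**Figure D1:**
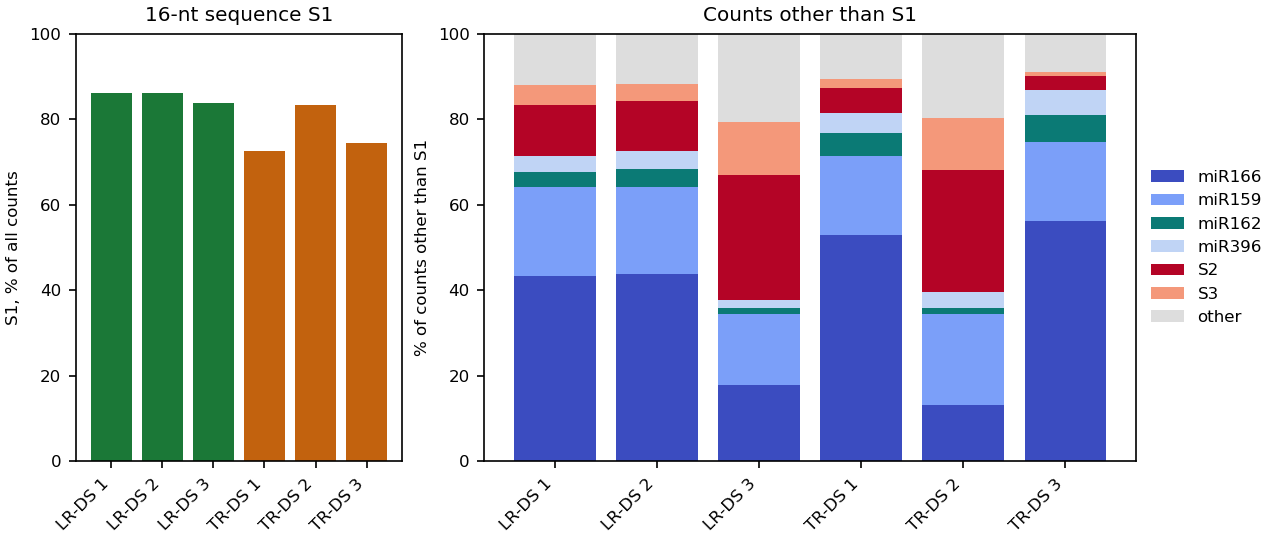
Share of S1 in all counts (left, %) and composition of the counts other than S1 (right, %) in the 3 LR-DS and the 3 TR-DS libraries, with 1 bar per library. S1 held between 83.7% and 86.2% in LR-DS and between 72.6% and 83.4% in TR-DS, and the share of miR166 was lowest in LR-DS 3 and TR-DS 2, where those of S2 and S3 were highest.

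The most abundant miRNAs were largely shared by both root types. Of the 10 highest in LR-DS, 9 were also among the 10 highest in TR-DS. After S1, the highest mean CPM (counts scaled to the library size) over the 6 libraries belonged to miR166d, miR159a, S2, miR166e, miR166a, S3 and miR162a. miR159a, which targets GAMYB-like MYB factors, varied little as % of other counts. It had 20.9%, 20.3% and 16.8% in LR-DS against 18.5%, 21.3% and 18.3% in TR-DS. With TMM factors its range was 0.55 log2 CPM in LR-DS and 1.16 in TR-DS. Its log2FC was -0.28, with a 95% interval of -1.67 to 1.11. Scaled by library size alone, S1 included, it was lower in every LR-DS than in every TR-DS library.

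Root tips hold several cell types, and in bulk libraries fewer cells of a type cannot be told apart from less RNA per cell. In the test across all miRNAs, no miRNA differed between LR-DS and TR-DS past the threshold. Of 74 miRNAs with at least 1 count, 39 had a log2FC above 0 and 35 below 0, and 0 (0%) reached the threshold of 0.05 on the false discovery rate (FDR; edgeR, quasi-likelihood F test). Before adjustment, p was 0.05 or lower for 4 miRNAs (5.41%), miR166f, miR156a, miR171a and S18. edgeR's likelihood ratio test and DESeq2 called 1 miRNA each, miR166f and miR156a in that order. The 95% intervals were wide, reaching a median of 2.18 on the log2 scale to either side over all miRNAs and of 1.93 over the 40 miRNAs with a mean of at least 100 CPM. At this width the values do not show that the root types were alike.

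**Figure D2:**
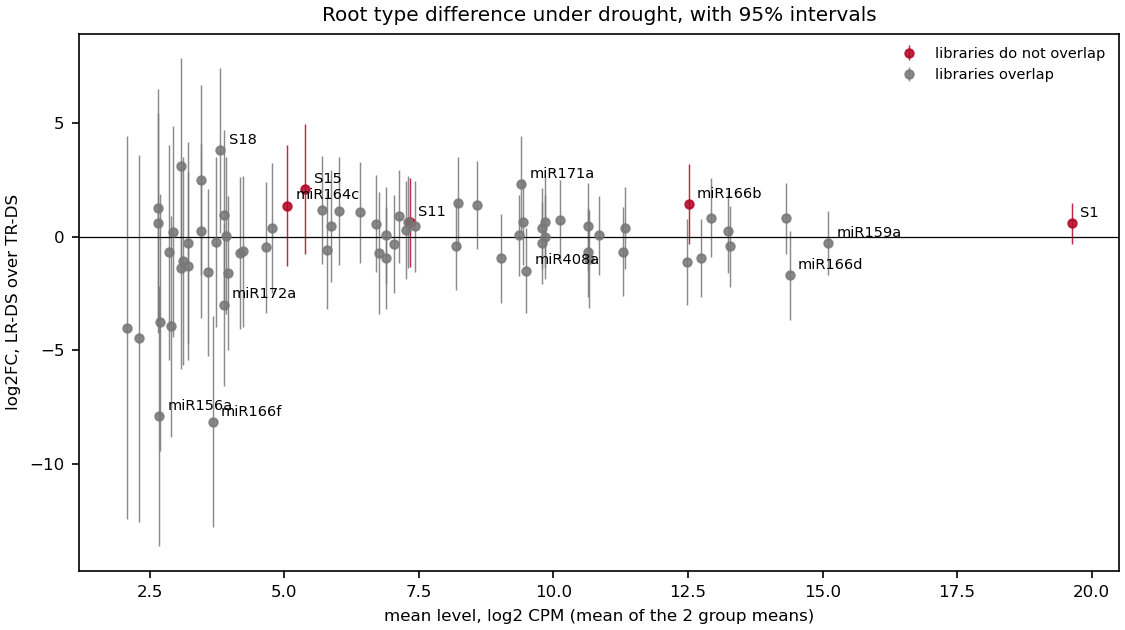
log2FC of LR-DS over TR-DS (y axis, points with 95% intervals) against the mean level in log2 CPM (x axis) for the 74 miRNAs tested, with the 5 whose LR-DS and TR-DS libraries did not overlap in red. All 5 lay above 0, and the lowest points, miR166f and miR156a, had counts in TR-DS that came from 1 library.

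The lowest p-values rested on single libraries. miR166f had 3, 2 and 0 counts in LR-DS and 0, 0 and 2057 in TR-DS, so that its edgeR log2FC of -8.14 (FDR 0.113) came from TR-DS 3 alone. Without TR-DS 3 the value was 3.51. miR156a, one of the miR156 members that restrain SPL factors in young plants, had no count in LR-DS and 0, 0 and 123 in TR-DS (FDR 0.367). With the LR-DS libraries of both at or below 3 counts, the fitted values depend on the prior count and are no measure of size. Set against the mean floor of 3 counts, the mean of TR-DS was at least 91.9-fold higher for miR166f and at least 5.49-fold higher for miR156a, which describes TR-DS 3 and not each taproot library.

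miR171a, a member of the family that targets GRAS factors of the HAM type, had the largest log2FC above 0 among the 40 miRNAs with a mean of at least 100 CPM. It had 0.412%, 0.351% and 2.59% of other counts in LR-DS, against 0.166%, 0.561% and 0.0730% in TR-DS. LR-DS 3 was far above the others, and TR-DS 2 lay within the range of LR-DS. The log2FC was 2.30 (standard error 1.01), and the FDR was 0.756 (edgeR). The log2FC was 0.61 without LR-DS 3 and 1.05 without TR-DS 3, and in the watered roots it was 0.26 (standard error 0.53). S18 had 4, 10 and 32 counts in LR-DS and 0, 0 and 13 in TR-DS (log2FC 3.80, FDR 0.756 in the same test), and its log2FC was 0.87 without LR-DS 3 and 7.72 without TR-DS 3.

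A second view asked which miRNAs lay in every LR-DS library above, or in every one below, the TR-DS libraries in log2 CPM. There were 5 of 74 (6.76%), all higher in LR-DS: miR166b, S15, miR164c, S11 and S1. With 3 against 3 libraries and no difference between them, such a separation in either direction has a probability of 0.1 (20 arrangements). The share seen was not above this, so that a separation alone does not set a miRNA apart. The split between higher and lower changed with the scaling. It was 5 to 0 with TMM factors, 2 to 4 with library size alone, 2 to 2 with RLE factors (relative log expression, as in DESeq2), and 4 to 2 with S1 left out of the library size. Relative to TMM, library size alone and RLE factors shifted the median log2FC by -0.40 and -0.37, and leaving out S1 shifted it by 0.18. miR166b alone was apart in all 4 scalings.

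As % of other counts, miR166b was also the clearest case by level. It had 6.19%, 6.64% and 6.03% of other counts in LR-DS, against 2.85%, 3.04% and 0.507% in TR-DS. In these percentages, all 3 LR-DS libraries were close together and well above the highest taproot library. The gap was narrow with the TMM factors behind the log2FC, at 8185 CPM in LR-DS 1 against 7539 CPM in TR-DS 1. The mean was 6.29 ± 0.317% in LR-DS and 2.13 ± 1.41% in TR-DS (SD, n = 3 each). The log2FC was 1.43, with a 95% interval of -0.31 to 3.17 and an FDR of 0.885 (edgeR), so that the difference was not beyond the spread that the fit allows. Without TR-DS 3 it was 0.62, and without TR-DS 1 it was 2.26. In the watered roots its share was 9.46%, 7.06% and 7.46% in LR-CT and 8.46%, 7.22% and 11.5% in TR-CT, with overlap and a log2FC of -0.06 (standard error 0.37). The test of the difference between both comparisons (interaction of root type and watering) gave a log2 value of 1.55 (standard error 1.02, FDR 0.656 in edgeR).

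S11, the sequence that shares its seed with miR171 queries, had 0.137%, 0.0987% and 0.123% of other counts in LR-DS and 0.0659%, 0.0722% and 0.0533% in TR-DS. The libraries of each root type were close to each other, and the groups did not overlap in these percentages or with TMM factors. With library size alone and with RLE factors they overlapped. The log2FC was 0.62 with a 95% interval of -1.35 to 2.59 (FDR 0.906 in edgeR), and it was 0.28 without TR-DS 3, 0.34 without TR-DS 2 and 0.37 without LR-DS 1. The same order was seen without drought, at 0.224%, 0.185% and 0.274% in LR-CT and 0.128%, 0.0630% and 0.0614% in TR-CT (log2FC 1.51, standard error 0.56, FDR 0.430 in edgeR). Lateral roots were thus higher in both sets of libraries, which share no library, and neither comparison passed the threshold.

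S15 and miR164c were apart with TMM factors only. miR164c, of the family that targets NAC factors, had 22, 17 and 16 counts in LR-DS and 8, 12 and 19 in TR-DS, and S15 had 52, 30 and 36 in LR-DS and 14, 31 and 0 in TR-DS. As % of other counts both overlapped, and their log2FC values were 1.36 (standard error 1.28) and 2.08 (standard error 1.37). Without LR-DS 3 the log2FC was 0.31 for miR164c and 0.91 for S15, and without TR-DS 3 it was 0.69 for miR164c and 0.65 for S15. At these counts, the order of the libraries rests on the scaling.

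In the other direction, miR408a and miR172a were lower in every LR-DS than in every TR-DS library in 3 of the 4 scalings. miR408a, which targets copper-containing proteins such as plantacyanins and laccases, had 0.344%, 0.362% and 0.134% of other counts in LR-DS, against 0.567%, 0.532% and 0.728% in TR-DS. The mean was 0.280 ± 0.127% in LR-DS and 0.609 ± 0.105% in TR-DS (SD, n = 3 each), and the log2FC was -1.49 with a 95% interval of -3.37 to 0.39 (FDR 0.885 in edgeR). With the TMM factors behind this log2FC the groups overlapped, at 721 CPM in LR-DS 2 against 553 CPM in TR-DS 2. In the watered roots the groups overlapped, at 0.192%, 0.281% and 0.253% in LR-CT and 0.316%, 0.244% and 0.465% in TR-CT. miR172a, which targets AP2-like factors, had 0, 8 and 0 counts in LR-DS and 22, 8 and 43 in TR-DS (log2FC -2.98, standard error 1.72, FDR 0.885 in edgeR). LR-DS 2 and TR-DS 2 both held 8 counts, so that their order rests on the scaling. With TMM factors LR-DS 2 was the higher one, at 13.2 CPM against 12.3 CPM in TR-DS 2. Without LR-DS 2, the only LR-DS library with a count, the miR172 total had a log2FC of -7.40 instead of -3.05, so that no size can be read from it. The watered libraries held 22, 13 and 21 counts (LR-CT) and 0, 1 and 0 counts (TR-CT), the opposite order. The FDR of the interaction was 0.167 by the quasi-likelihood F test of edgeR and 0.00445 by its likelihood ratio test.

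**Figure D3:**
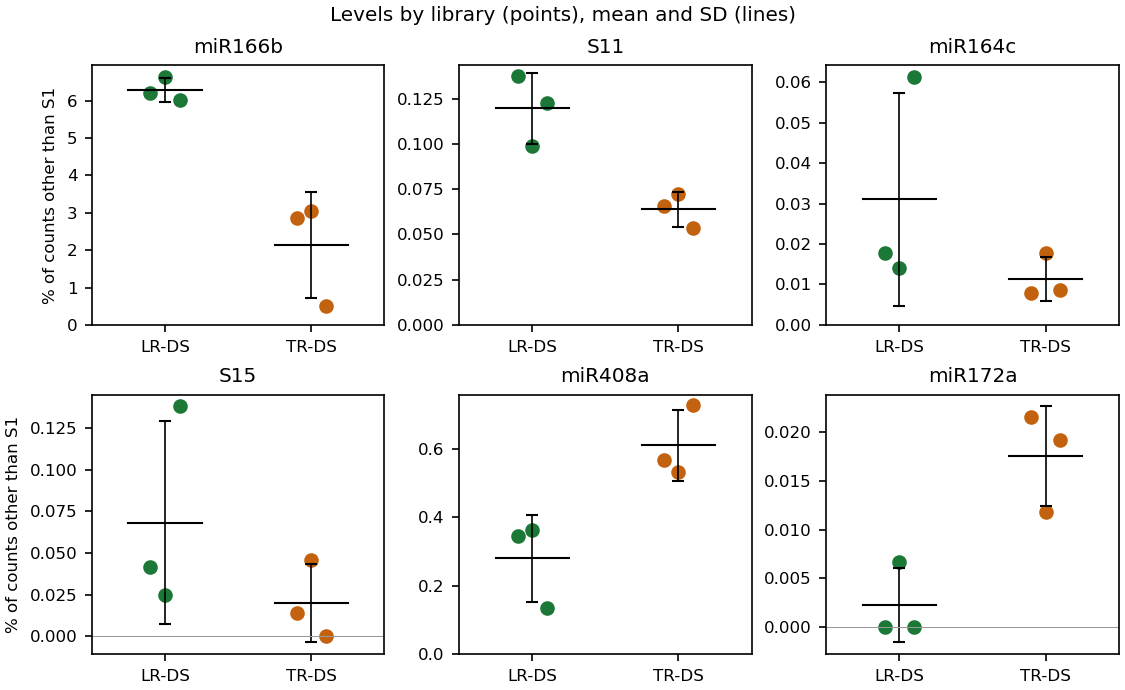
Levels of 6 miRNAs as % of counts other than S1 (y axis, linear, a scale of its own in each panel) in LR-DS and TR-DS, with 1 point per library and lines for the mean and SD of 3 libraries. miR166b lay between 6.03% and 6.64% in LR-DS and at or below 3.04% in TR-DS, while miR408a lay at or below 0.362% in LR-DS and at or above 0.532% in TR-DS.

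LR-DS 3 and TR-DS 2 each differed from the other libraries of their root type in many miRNAs, some of them the same. Each was compared with the mean of the other 2 libraries of its root type. Of the 74 miRNAs, LR-DS 3 lay more than 1 log2 CPM above this mean in 22 and more than 1 below in 19. For TR-DS 2 these were 23 and 34, so that some miRNAs are shared even between unrelated libraries. In 11 miRNAs both lay more than 1 above, and 10 of these were sequence-named (miR393b was the other one). In 15 both lay more than 1 below, all of them known miRNAs, and in 8 the 2 libraries lay more than 1 away in opposite directions. Whether these counts exceed those of unrelated libraries was not tested. miR166d had 18.0%, 17.4% and 1.35% of other counts in LR-DS and 35.7%, 5.02% and 36.0% in TR-DS. S2 had 11.7%, 11.8% and 29.2% in LR-DS and 5.80%, 28.4% and 3.16% in TR-DS, and S3 had 4.82%, 3.93% and 12.3% in LR-DS and 2.05%, 12.2% and 1.03% in TR-DS. The sequence-named miRNAs without S1 together held 20.6%, 19.5% and 51.8% in LR-DS and 10.3%, 51.8% and 5.32% in TR-DS. LR-DS 3 was also the smallest library and its description names the column of LR-DS 2, while nothing in the labels sets TR-DS 2 apart. TR-DS 3 was no closer to the other taproots: Pearson's r over the miRNAs was 0.869 between TR-DS 1 and TR-DS 3, 0.879 between TR-DS 1 and TR-DS 2, and 0.775 between TR-DS 2 and TR-DS 3. Leaving out TR-DS 3 shifted the median log2FC by -0.66, more than leaving out any other single library. The values without these libraries stand beside the results they moved most.

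**Figure D4:**
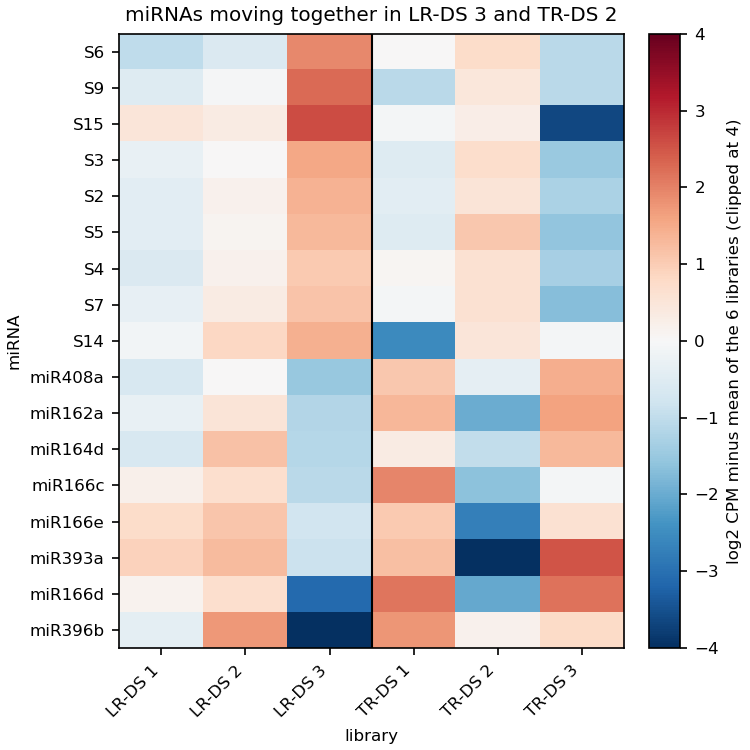
log2 CPM of 17 miRNAs (rows) with a mean of at least 50 CPM in the 6 libraries (columns), as the difference from the mean of all 6, clipped at 4. These are the miRNAs in which LR-DS 3 and TR-DS 2 both lay more than 1 above (9, sequence-named) or below (8, known miRNAs) the mean of the other 2 libraries of their root type.

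The spread was larger among taproots. The median range over the 3 libraries of a miRNA was 1.69 log2 CPM in LR-DS and 2.33 in TR-DS, and it was above 2 in 26 miRNAs of LR-DS and in 45 of TR-DS. Over the 74 miRNAs, Pearson's r between log2 CPM of 2 libraries was 0.914 to 0.959 within LR-DS, 0.775 to 0.879 within TR-DS, and 0.776 to 0.951 between the root types. LR-DS 1 thus resembled TR-DS 1 as closely as the lateral root libraries resembled each other. These values describe libraries of unequal depth over the same miRNAs.

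Family totals, the counts of all members summed, were fitted with TMM factors over their own rows and also gave no call. Of the 23 families, 0 (0%) reached the FDR threshold of 0.05 (edgeR, quasi-likelihood F test), 0 had an unadjusted p below 0.05, and the smallest FDR was 0.914. Of the families, 4 had a log2FC above 0 and 19 below 0, with a median of -0.41 against -0.17 over the 47 rows of that fit, which holds the sequence-named miRNAs as well. With S1 left out of the library size, 11 families were above 0 and 12 below 0. In 4 of 47 rows (8.51%) the groups did not overlap: S13 was higher in LR-DS, and the miR167, miR172 and miR408 totals were lower. This share, too, was not above the probability of 0.1 that holds without a difference. miR172 and miR408 have 1 member each, and the same counts overlapped with the TMM factors of the single miRNAs. S13 had 67, 69 and 27 counts in LR-DS and 31, 27 and 47 in TR-DS, and among the single miRNAs it was apart with RLE factors and with S1 left out. miR167 totalled 1.11%, 1.15% and 1.88% of other counts in LR-DS and 1.15%, 1.99% and 1.19% in TR-DS, which overlap, so that its order rests on the TMM factors.

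Without LR-DS 3 and TR-DS 2, an alternative chosen after seeing the data, 4 of the 46 rows of family totals passed an FDR of 0.05 (8.7%). The miR166 total had a log2FC of -0.65 (FDR 4.07e-05 in edgeR), the miR162 total of -0.97 (FDR 0.00917), the miR396 total of -0.73 (FDR 0.0372), and S1 of 0.83 (FDR 4.99e-10). These calls rest on 2 libraries of each root type, picked by their values, and no single miRNA passed in the same setting. With all 6 libraries, miR166 totalled 43.3%, 43.9% and 17.8% of other counts in LR-DS and 52.9%, 13.3% and 56.2% in TR-DS, with a log2FC of -0.66 and an FDR of 0.914. In no other alternative run did a family total pass.

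Among the regulators of meristems and patterning (miR164, miR166, miR171 and miR396), 8 of 19 miRNAs had a log2FC above 0 and 11 below 0, with a median of -0.42 against 0.06 over all 74. With S1 left out of the library size the median was 0.0071, and without TR-DS 1 it was 0.079. None passed the FDR threshold. The miR164 total was 0.150%, 0.169% and 0.111% of other counts in LR-DS and 0.156%, 0.136% and 0.127% in TR-DS, and the miR171 total was 1.90%, 1.94% and 3.50% in LR-DS and 2.41%, 0.918% and 2.16% in TR-DS. Within miR171 the members differed more than the total. miR171d had 1.22%, 1.35% and 0.659% in LR-DS against 2.08%, 0.103% and 1.99% in TR-DS. For miR171d the log2FC was -0.99 (standard error 1.03), while that of miR171a was above 0. The miR396 total had 3.75%, 4.22% and 1.88% in LR-DS and 4.73%, 3.74% and 5.81% in TR-DS (log2FC -0.93, 95% interval -2.33 to 0.48), nearly all of it miR396c.

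Of the 9 miRNAs that act on auxin signalling, 6 had a log2FC above 0 and 3 below 0, with a median of 0.06, close to that of all miRNAs. It was -0.40 with library size alone or RLE factors, and -0.31 without LR-DS 3. The miR160 total, which acts on repressive auxin response factors, had a log2FC of 0.21. That of miR167, which acts on activating auxin response factors, was -0.51, and that of miR390, which triggers the tasiRNAs that limit further auxin response factors, was 0.03. miR393, which targets auxin receptors, totalled 0.163%, 0.130% and 0.0575% of other counts in LR-DS and 0.0924%, 0.00589% and 0.227% in TR-DS (log2FC -0.36, 95% interval -2.85 to 2.14). The direction of miR160, miR390 and miR393 changed with a scaling or a left-out library.

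The age pathway had 4 miRNAs tested, 1 above 0 and 3 below 0, with a median log2FC of -1.96, or -1.70 with miR156a at its bound. The median was -0.65 without TR-DS 3 and -4.33 without LR-DS 2. The miR156 total, mostly miR156b, was 0.620%, 0.521% and 0.663% of other counts in LR-DS and 0.256%, 1.11% and 0.266% in TR-DS. TR-DS 2 alone was above LR-DS, and without it the log2FC of the miR156 total was 0.61 instead of -0.15. miR157, a close relative of miR156, totalled 0.0973%, 0.0680% and 0.0422% in LR-DS and 0.00688%, 0.190% and 0.164% in TR-DS (log2FC -1.05).

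For MYB and TCP factors, the miR159 total had a log2FC of -0.40 (95% interval -1.45 to 0.66) and that of miR319, which targets TCP factors, of 0.17 (-1.63 to 1.97). All 3 miRNAs that act on the small RNA machinery had a log2FC below 0, with a median of -0.28, but 2 of 3 were above 0 with S1 left out of the library size. miR162, which targets the processing enzyme DICER-LIKE1, totalled 3.51%, 4.12% and 1.36% of other counts in LR-DS and 5.47%, 1.40% and 6.46% in TR-DS (log2FC -1.0, 95% interval -2.83 to 0.83). miR168, which targets ARGONAUTE1, had 0.472%, 0.635% and 0.372% in LR-DS and 0.519%, 0.454% and 0.477% in TR-DS. miR403, which targets ARGONAUTE2, had 0.406%, 0.338% and 0.989% in LR-DS and 0.570%, 0.668% and 0.323% in TR-DS. The log2FC of the family total was -0.37 for miR168 and -0.39 for miR403, and both overlapped. In the fit of single miRNAs, which gave the median, the same counts had a log2FC of -1.12 for miR162a, -0.28 for miR168a and -0.019 for miR403a.

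Of the 10 miRNAs linked to nutrients and copper, 9 had a log2FC below 0 and 1 above 0, with a median of -0.89 against 0.06 over all miRNAs, and 0 passed the FDR threshold. With members at their bound, the median was -0.70, without TR-DS 3 it was -0.021, with 5 above 0 and 5 below 0, and without LR-DS 1 it was -2.33. miR398, which targets copper superoxide dismutases, totalled 1.30%, 1.37% and 0.671% of other counts in LR-DS and 1.64%, 0.435% and 1.55% in TR-DS (log2FC -0.58, 95% interval -2.26 to 1.11). miR395, which acts on sulfate assimilation, totalled 0.0523%, 0.0158% and 0.00767% in LR-DS and 0.0236%, 0.00589% and 0.0475% in TR-DS (log2FC -0.41), and its 6 members may share reads. miR2111, a shoot-to-root signal in legumes, had 6 counts in TR-DS 2 and none in the other drought libraries. The less studied miR530, miR535 and miR2950 had family log2FC values of -3.99, 0.50 and -4.61. miR530 and miR2950 were at 0 or 1 count in every LR-DS library, and no size can be read from their values.

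The known and the sequence-named miRNAs leaned in opposite directions. Of the 50 known miRNAs tested, 18 had a log2FC above 0 and 32 below 0 (median -0.41), and of the 24 sequence-named miRNAs 21 had a log2FC above 0 and 3 below 0 (median 0.72). With S1 left out of the library size the known miRNAs were split 26 to 24, and without TR-DS 3 the sequence-named ones were split 12 to 12 (median -0.14). Without LR-DS 3 their median was 0.15. The split of the sequence-named ones also changed with the scaling. It was 15 to 9 (median 0.22) with RLE factors and 16 to 8 (median 0.18) with library size alone. Among the sequence-named ones were the 10 miRNAs that lay higher in both LR-DS 3 and TR-DS 2. Without TR-DS 3 the log2FC of S2 was -0.36 instead of 0.80 and that of S3 -0.43 instead of 0.83. In the fit of family totals, scaled over its own rows, it was 0.13 for S2 and 0.10 for S3. S8 and S24 are 1 sequence counted at 2 loci, and S19 and S22 share a seed and differ by 1 base, so that their reads cannot be taken as independent:
S8: cUUCUGUUagcucuuaugga
S19: uCGGUAAUgauuuucuggaguc
S22: uCGGUAAUgauuuuguggaguc
S8 had 280, 200 and 221 counts in LR-DS and 129, 203 and 158 in TR-DS, and S24 at most 7 in any library. S19 had 24, 15 and 6 counts in LR-DS and 12, 23 and 4 in TR-DS, and S22 had 6, 12 and 5 in LR-DS and 7, 0 and 10 in TR-DS. The change is G15C, with the base of S22 first.

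Shares of members within a family do not depend on the library size or on S1. They were computed for 28 members of 8 families, and in 3 of 28 (10.7%) the groups did not overlap. That share is close to the probability of 0.1 that holds without a difference. miR390a held 67.3%, 72.0% and 65.8% of the miR390 counts in LR-DS, against 50.7%, 60.8% and 60.4% in TR-DS. The mean was 68.4 ± 3.2% in LR-DS and 57.3 ± 5.7% in TR-DS (SD, n = 3 each; exact permutation test, two-sided p = 0.1, adjusted p = 0.9 over 27 members), and miR390b, the only other member, mirrors it. In the watered roots, miR390a held 79.1%, 80.2% and 79.2% in LR-CT and 58.8%, 50.9% and 22.1% in TR-CT, again with no overlap (exact permutation test, two-sided p = 0.1). Lateral roots thus had the larger share of miR390a in both pairs of groups, without a shared library. Whether both members can be told apart by their reads was not tested.

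The third was miR166e. It held 28.1%, 23.8% and 17.5% of the miR166 counts in LR-DS and 14.2%, 10.7% and 9.80% in TR-DS, with means of 23.1 ± 5.3% in LR-DS and 11.6 ± 2.4% in TR-DS (SD, n = 3 each; exact permutation test, two-sided p = 0.1, adjusted p = 0.9). All lateral root libraries lay above all taproot libraries, LR-DS 3 and TR-DS 2 included. In the watered roots the shares overlapped, at 24.9%, 27.0% and 27.1% in LR-CT and 19.7%, 14.6% and 27.1% in TR-CT. The other members of miR166 were less even: miR166d held 41.6%, 39.5% and 7.56% in LR-DS and 67.6%, 37.8% and 64.1% in TR-DS, and miR166b 14.3%, 15.1% and 33.9% in LR-DS and 5.39%, 22.9% and 0.901% in TR-DS. The paper gives miR166a and miR166d as the same mature sequence at different loci and describes that of miR166b as distinct. The separate values of miR166a and miR166d are thus not those of different sequences. Other members of miR166 are near-identical in plants, so that reads may have been split between them by the counting.

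**Figure D5:**
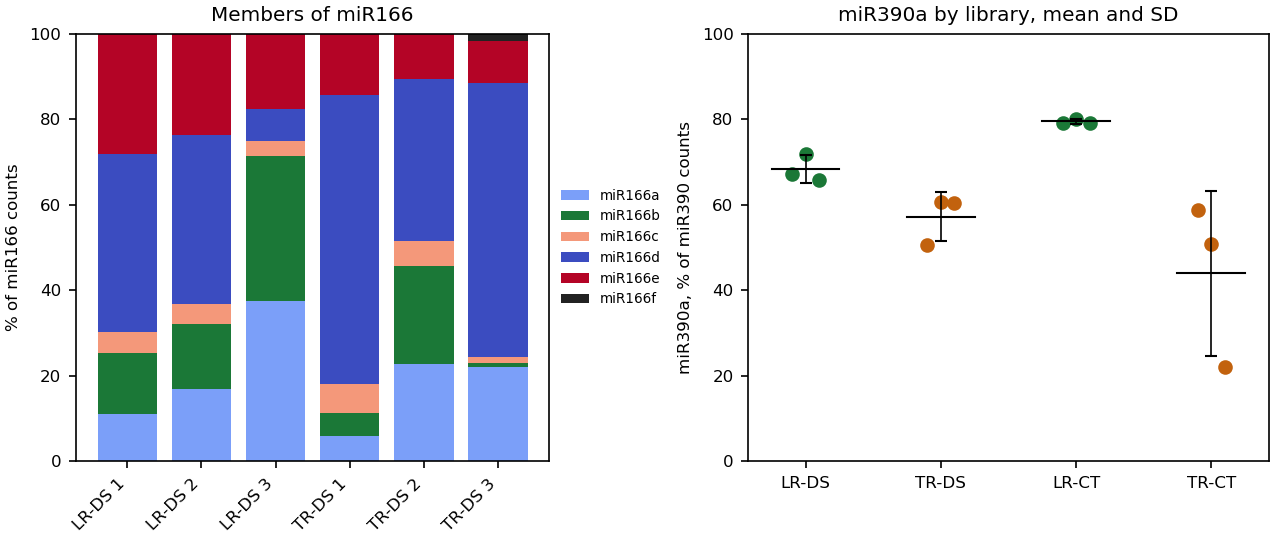
Left, share of each miR166 member in the miR166 counts (%) in the 3 LR-DS and 3 TR-DS libraries. Right, share of miR390a in the miR390 counts (%) in LR-DS, TR-DS, LR-CT and TR-CT, with 1 point per library and lines for the mean and SD of 3 libraries: it lay between 65.8% and 72.0% in LR-DS and between 50.7% and 60.8% in TR-DS.

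The number of miRNAs detected was close in both root types. At least 3 counts in every library were found for 48 miRNAs in LR-DS and for 46 in TR-DS, 44 of them in both. With the counts of each library drawn down at random to the total of LR-DS 3, these were 44, 43 and 40. As deposited, 0 miRNAs had more than 3 counts in every library of one root type and at most 3 in every library of the other. miR156a, miR2950a and miR2111a had no count in LR-DS, and miR156c had none in either root type.

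The difference between the root types under drought was set beside that in watered roots. Of the 74 miRNAs, 44 had the same sign of log2FC (59.5%). Over the miRNAs, Pearson's r between both log2FC values was -0.31 and Spearman's rho 0.23. These values include miRNAs at or below 3 counts in every LR-DS library, such as miR166f. Over the 44 whose mean log2 CPM in the 6 drought libraries was at least that of 50 CPM, r was 0.45 and rho 0.46. miRNAs are not independent replicates. In the watered roots 0 of 75 miRNAs (0%) reached the FDR threshold of 0.05 (edgeR, quasi-likelihood F test), and 5 had an unadjusted p below 0.05. The test of the interaction of root type and watering likewise called 0 of 75 (0%), with 5 below an unadjusted p of 0.05. The smallest FDR of the interaction was 0.0979, for miR166f. Its drought part rested on TR-DS 3 as above. In the watered roots miR166f had 45, 79 and 80 counts in LR-CT and 0 in every TR-CT library (log2FC 8.57, FDR 0.0865 in edgeR). The interaction thus also rests on this opposite order in the watered libraries.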

How the data were processed

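Small RNA libraries of root tips were sequenced as 50 bp single-end reads. Per the methods, the authors removed adapters (Cutadapt, minimum length 15 nt) and used ShortStack with Bowtie and miRBase sequences to map and count. The methods name the Quercus robur genome PM1N for the transcriptome and degradome. Versions, and the genome for the small RNA reads, are not given in the sources used here. They deposited raw, whole-number counts for each mature miRNA. Columns were matched to samples by title, since the description of LR-DS 3 names the column of LR-DS 2.

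The tests used edgeR 4.0.16 (R 4.3.3): miRNAs with at least 1 count over the 6 libraries, TMM factors (0.700 to 1.59), glmQLFit and glmQLFTest, and Benjamini-Hochberg adjustment over all miRNAs tested. Standard errors are the absolute log2FC divided by the square root of F, and log2 CPM used a prior count of 2. Family totals were summed before scaling. Lower bounds used CPM by library size. The interaction was fitted over all 12 libraries. miRNAs named were those with the lowest p, those that did not overlap, the most abundant ones and all families. Members and lists were chosen with earlier results of these data known. DESeq2 1.42.0, other scalings and filters, and left-out libraries were tried. The fit was tested on simulated data. Replicates of 1 group differed beyond sampling noise (chi-square over its degrees of freedom 26.5 to 1511). Nothing beyond the replicate label states separate plants, so p-values measure the spread between these libraries. Python 3.11.15 made tables and plots.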

Additional observations from a re-analysis of the deposited data

How the results depend on the processing

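The count of 0 single miRNAs past the threshold became 1 with DESeq2 (miR156a), 1 with edgeR's likelihood ratio test (miR166f), and 0 to 2 when a library was left out (miR166f without LR-DS 1 or LR-DS 2, miR156a and miR166f without TR-DS 1). Counts stayed at 0 for family totals except without LR-DS 3 and TR-DS 2, where they were 4. The interaction gave 3 with the likelihood ratio test and 1 with library size alone, and the watered comparison gave 1 with library size alone. In the fit with a replicate block, 0 miRNAs and 0 families passed. Libraries of the same number did not deviate together (r = 0.028, -0.31 and -0.30), so the numbers were not taken as pairs.

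No direction below belonged to a value past the threshold. The log2FC changed sign with library size alone for S19 (-0.20), miR166e (-0.023), and the totals of miR319 (-0.080) and miR390 (-0.036). It did so for S19 with RLE factors (-0.037), with DESeq2 (-0.037) and with 1 fit of all 12 libraries (-0.019). With S1 left out of the library size, it was above 0 for miR166a (0.027) and the totals of miR156 (0.14), miR164 (0.043), miR168 (0.030), miR171 (0.42), miR393 (0.11), miR395 (0.00074) and miR403 (0.15). The fit of all 12 libraries gave 0.080 for miR156 and 0.11 for miR171. With the replicate block it was 0.067 for miR166a, 0.16 for miR393a, and 0.063, 0.021 and 0.49 for the totals of miR156, miR171 and miR393. When 1 library, or LR-DS 3 and TR-DS 2 together, were left out, log2FC ranged over 0 for S19 (-0.74 to 0.78), S22 (-0.21 to 1.65), S2 (-0.36 to 1.38), S3 (-0.43 to 1.59), miR166a (-0.98 to 0.55), miR166e (-0.29 to 0.80), miR166f (-8.86 to 3.51), miR390a (-0.11 to 0.95) and miR393a (-1.30 to 0.51). Family totals that did so were miR156 (-0.42 to 0.80), miR160 (-0.25 to 1.43), miR164 (-0.58 to 0.051), miR171 (-0.59 to 0.48), miR319 (-0.51 to 1.34), miR390 (-0.26 to 0.64), miR393 (-0.91 to 0.77), miR395 (-1.61 to 0.42), miR403 (-0.71 to 0.17) and miR530 (-6.96 to 1.97). The causes were not tested.

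The difference in the share of S1 ranged from 6.35 to 11.8 percentage points when 1 library was left out. LR-DS 3 had the fewest counts other than S1 (26087), as its total was the smallest.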
